A study of Mus musculus with 12 samples.

Results

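Melanocyte and iris pigment genes were described in RNAseq of dissected mouse CEC (corneal endothelial cells on their Descemet membrane). The 10 genes were chosen by name, as *Tyr*, *Tyrp1*, *Dct*, *Pmel*, *Mlana*, *Mitf*, *Gpnmb*, *Slc45a2*, *Oca2* and *Sox10*, and 9 of them are among the 15838 genes of the processed tables. *Slc45a2*, which encodes a melanosomal transporter, has no row, so its level is not analysed here. The 12 libraries came from C57BL/6 mice at 10 weeks of age and fall into 4 groups of 3, namely Slc4a11-/- males (KO male), Slc4a11-/- females (KO female), Slc4a11+/+ males (WT male) and Slc4a11+/+ females (WT female). KO mice carry a targeted deletion within *Slc4a11*, the gene mutated in congenital hereditary endothelial dystrophy, and the WT mice were their littermates. The methods describe Descemet membranes handled as pairs, while the sample records speak of pooling, so the number of mice behind a library is uncertain. The only expression value used was the authors' mean over the libraries, in log2 CPM (read counts scaled to the size of the library, on a log2 scale), which comes without an SD, an n or values per library. Whether a pigment gene differed between KO and WT or between the sexes is therefore not given. *Slc4a11* itself, at a mean of 10.71 log2 CPM, was not checked against the genotype labels.

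Pigment cells make melanin inside melanosomes, organelles related to the lysosome. Tyrosinase, encoded by *Tyr*, starts the synthesis from tyrosine, and its relatives TYRP1 and DCT act on later intermediates. PMEL forms the fibrils on which melanin settles, and MLANA is needed for PMEL to mature. OCA2 and SLC45A2 are transporters that set the ionic conditions inside the melanosome. MITF is the transcription factor that drives many of these genes in melanocytes, SOX10 acts upstream of it in neural crest derivatives, and both have roles in other cells. In the eye, pigment lies in melanocytes of the iris stroma and choroid, which come from the neural crest, and in the pigmented epithelia of the iris, ciliary body and retina, which come from the optic cup. Corneal endothelium also derives from the neural crest but is not pigmented.

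The promoters of the 3 melanin enzyme genes share a short motif. It is the core of the M-box, with the letters TCATGTG, which MITF is known to recognise. RefSeq promoter windows on GRCm38.p6, of 250 bases before to 50 bases after each gene start, were matched by symbol to 6 of the 10 genes, which are *Tyr*, *Tyrp1*, *Dct*, *Mitf*, *Gpnmb* and *Oca2*. Both strands were searched, with CACATGA as the reverse complement. The 4 matches are shown because they let the sites be compared base by base, each read on the strand that carries TCATGTG, 5′ to 3′, over 27 bases with the core in capitals.
Tyr, plus strand of the gene, chr7:87493518-87493544: aaaaagttagTCATGTGctttgcagaa
Tyrp1, plus strand of the gene, chr4:80834156-80834182: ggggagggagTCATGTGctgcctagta
Dct near site, plus strand of the gene, chr14:118052381-118052407: gcacttagggTCATGTGctaacaaaga
Dct far site, minus strand of the gene, chr14:118052462-118052488: tttattgggcTCATGTGtcccagccaa

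The core began 22 bases before the start in *Tyr*, 47 in *Tyrp1*, and 151 in *Dct*, with a further match on the opposite strand of *Dct* beginning 232 bases before it. With 2 bases added on each side, *Tyr* and *Tyrp1* held the same 11 letters, AGTCATGTGCT. The near site of *Dct*, GGTCATGTGCT, had 1 difference from *Tyr* (A1G, with positions counted from 1 at the 5′ end of the 11 letters). The start of *Tyrp1* in GENCODE M21 lies 90 bases upstream of the RefSeq start, so by GENCODE its core falls downstream of the gene start. For *Tyr* the starts were equal, and for *Dct* they differed by 2 bases. For *Tyr* and *Dct* the whole 250 bases before the start follow, 5′ to 3′ on the strand of the gene, with each core or its reverse complement in capitals.
Tyr, chr7:87493513-87493762, minus strand: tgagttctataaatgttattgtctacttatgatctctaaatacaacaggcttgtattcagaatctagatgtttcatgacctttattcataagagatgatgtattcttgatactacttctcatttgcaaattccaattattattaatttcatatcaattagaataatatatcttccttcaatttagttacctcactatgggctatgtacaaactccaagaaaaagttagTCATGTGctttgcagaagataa
Dct, chr14:118052247-118052496, minus strand: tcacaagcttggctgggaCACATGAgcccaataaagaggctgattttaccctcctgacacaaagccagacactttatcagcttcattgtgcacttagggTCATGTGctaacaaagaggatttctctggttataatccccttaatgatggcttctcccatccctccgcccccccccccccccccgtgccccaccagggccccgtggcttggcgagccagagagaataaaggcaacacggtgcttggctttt

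Of the 6 genes with a window, 3 held the core, as did 4.31% of the 27025 genes with windows. The core was picked as a known site of MITF, which drives many of these genes, so this count is not independent support. The shorter E-box CATGTG, which lies within the core and was also searched on both strands, was found in 4 of the 6, adding *Oca2* with a match 186 to 181 bases before the start. Among all genes, 15.9% held it. The palindromic E-box CACGTG was in 0 of the 6 and in 8.09% of all genes. The 3 windows of *Mitf* and the window of *Gpnmb* held none of these motifs. A match describes letters in a window and was not tested as a binding site. The upstream part of the *Tyr* window had a GC content of 28.8%, compared with 39.2% in *Tyrp1* and 54.0% in *Dct*.

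**Figure D1:**
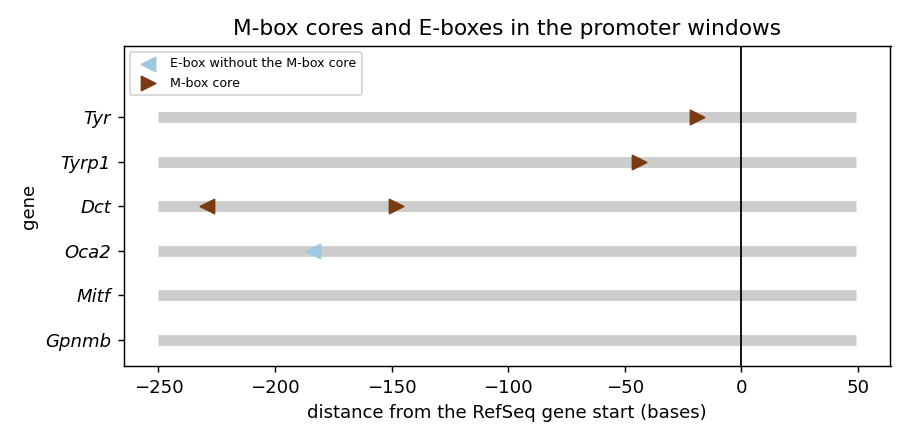
Position of M-box cores and E-boxes (triangles, pointing along the strand that carries the motif) in the promoter windows of the 6 genes with a window, by distance in bases from the RefSeq start. Grey bars are the windows, with the 3 windows of *Mitf* drawn as 1 bar; the 3 enzyme genes carry the core and *Oca2* carries the E-box alone.

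Among the enzymes, *Dct* (ENSMUSG00000022129, chromosome 14 from 118012790 to 118052244, minus strand), which encodes dopachrome tautomerase, had the highest level per kb. The authors' mean was 3.26 log2 CPM for *Dct*, or 9.59 CPM when taken back from the log2 scale. *Tyrp1* (ENSMUSG00000005994, chromosome 4 from 80834123 to 80851719, plus strand) had a mean of 1.39 log2 CPM, or 2.61 CPM. *Tyr* (ENSMUSG00000004651, chromosome 7 from 87424771 to 87493512, minus strand) had a mean of 0.09 log2 CPM, or 1.06 CPM. Long genes collect more reads, so the order of the genes and the folds between them were taken after division by the length of their exons in kb (the union of all annotated exons in GENCODE M21). Per kb the mean level was 0.70 log2(CPM per kb) for *Dct*, -0.11 for *Tyrp1* and -2.74 for *Tyr*. *Dct* was thus 1.76-fold above *Tyrp1* and 10.9-fold above *Tyr* per kb. These folds compare means that carry no error here, and no test between genes was made. With the longest annotated transcript as the length, the folds were 2.89 and 15.8, in the same order.

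*Pmel* (ENSMUSG00000025359, chromosome 10 from 128704195 to 128720238, plus strand) had a mean of 2.20 log2 CPM, or 4.59 CPM. At 1.001 log2(CPM per kb) it stood just above *Dct*, by 0.30 on the log2 scale. That order of *Pmel* and *Dct* reversed when the longest transcript was used, with 1.11 for *Pmel* and 1.47 for *Dct*. *Pmel* overlaps the exons of *Dgka* by 105 bases and those of *Cdk2* by 34 bases, both on the opposite strand. Their means were 4.37 log2 CPM for *Dgka* and 3.79 for *Cdk2*, and whether reads were counted by strand is not given in the sources used here. *Mlana* (ENSMUSG00000024806, chromosome 19 from 29697824 to 29708634, plus strand) had a mean of -0.58 log2 CPM, or 0.669 CPM. It is the shortest of the 9 genes, with 1057 exonic bases, and per kb it stood at -0.66 log2(CPM per kb), above *Sox10*, *Oca2* and *Tyr*.

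*Oca2* (ENSMUSG00000030450, chromosome 7 from 56239760 to 56536518, plus strand) was the only transporter with a row. Its mean was -0.22 log2 CPM, or 0.860 CPM, and -2.20 log2(CPM per kb). *Oca2* and *Tyr* lie on the same chromosome with 30.9 megabases between them. Per kb these were the lowest values of the 9 genes, at percentiles 3.80 for *Oca2* and 2.10 for *Tyr* among the 15824 genes whose length was known.

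*Gpnmb* and *Mitf* had the highest levels of the 9 genes per kb. *Gpnmb* (ENSMUSG00000029816, chromosome 6 from 49036546 to 49070929, plus strand) encodes a transmembrane glycoprotein of melanosomes that is related to PMEL and is also made by macrophages. Its mean was 5.52 log2 CPM, or 45.9 CPM, and 2.82 log2(CPM per kb), which is percentile 68.1 of all genes. *Mitf* (ENSMUSG00000035158, chromosome 6 from 97807052 to 98021349, plus strand) had a mean of 4.24 log2 CPM, or 18.9 CPM, and 1.61 log2(CPM per kb), at percentile 46.8. Per kb *Gpnmb* was 2.31-fold above *Mitf*. *Mitf* has several starts, 3 of them with RefSeq windows, and a value per gene does not separate the transcripts. *Sox10* (ENSMUSG00000033006, chromosome 15 from 79154908 to 79165240, minus strand) had a mean of 0.09 log2 CPM, or 1.07 CPM, and -1.52 log2(CPM per kb). It stood at percentile 7.89.

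Over the 9 genes the level per kb ran from -2.74 for *Tyr* to 2.82 for *Gpnmb*, a range of 5.56 on the log2 scale, with a median of -0.11. The median over all genes was 1.79, and *Gpnmb* alone of the 9 was above it. Without division by length, 2 of the 9, *Gpnmb* and *Mitf*, were above the median of all genes, 3.76 log2 CPM. Per kb, 5 of the 9 were in the lowest 25% of all genes and 0 in the highest 25%. A mean of at least 1 CPM, the level that the study's methods name as a threshold, was reached without division by length by 7 of the 9 genes and by 91.0% of all 15838 genes, with *Mlana* and *Oca2* below it. The order per kb was *Gpnmb*, *Mitf*, *Pmel*, *Dct*, *Tyrp1*, *Mlana*, *Sox10*, *Oca2* and *Tyr*. Neighbours in this order were 1.23-fold to 2.31-fold apart, and without a spread over libraries none of these steps could be tested. Added together, the 9 genes came to 16.0 CPM per kb, of which *Gpnmb* supplied 44.0% and *Gpnmb* with *Mitf* 63.1%. The 5 genes *Tyr*, *Tyrp1*, *Dct*, *Pmel* and *Mlana* came to 5.34 CPM per kb.

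**Figure D2:**
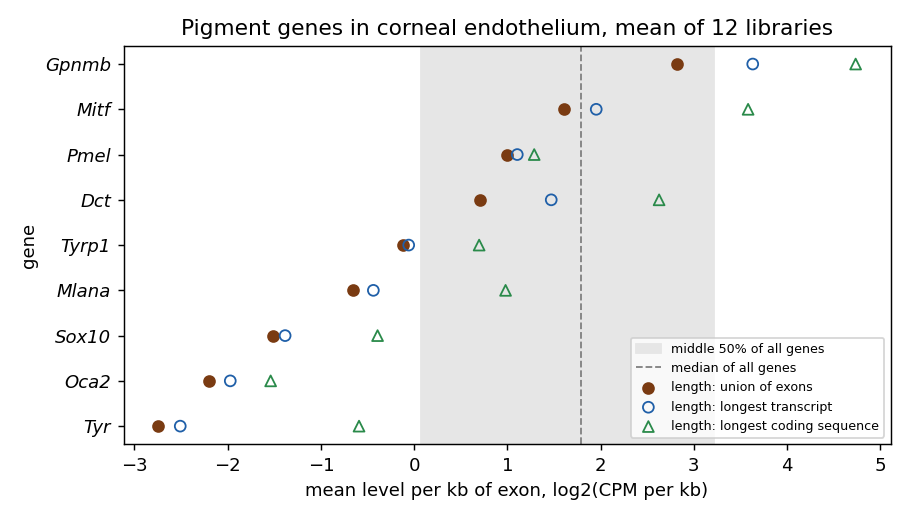
Mean level per kb of the 9 pigment genes with a row, on a log2(CPM per kb) axis, with the length taken as the union of exons (filled circles), the longest transcript (open circles) or the longest coding sequence (triangles). The grey band is the middle 50% of all genes and the dashed line their median of 1.79, both with the union of exons; *Gpnmb* alone lies right of the line among the filled circles, and the data give no error bars.

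Reads of 50 bases can be placed on these genes with little ambiguity among annotated transcripts. No stretch of 50 bases was shared in the same orientation between any of the 10 genes. The related *Tyr*, *Tyrp1* and *Dct* therefore had no stretch in common at that length and orientation. With transcripts of other genes, *Tyr* shared 1.20% of its stretches and *Dct* 1.42%, each with over 100 different genes (140 for *Tyr*, 176 for *Dct*). *Pmel* shared 2.50%, all with *Dgka*. For *Gpnmb* the share was 0.0154%, and for the other members it was 0.

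The level of the pigment genes was set beside markers of the labelled tissue and of neighbouring tissues. All 9 corneal endothelial markers had a row, from 6.14 log2(CPM per kb) for *Cdh2* (N-cadherin) to 10.97 for *Aqp1* (the water channel aquaporin 1), with a median of 8.31. This is the tissue that the labels name. The lowest of them, *Cdh2*, was 9.98-fold above the highest pigment gene, *Gpnmb*, per kb. *Col8a2*, a collagen of Descemet membrane, was 972-fold above *Dct* per kb. The summed level of the 9 endothelial markers was 357 times that of the 9 pigment genes. Of the endothelial sum of 5717 CPM per kb, *Aqp1* supplied 2009 and *Col8a2* 1582. The endothelial list includes *Slc4a11*, averaged over KO and WT libraries. In such bulk tissue, few pigment cells and little pigment RNA in each cell cannot be told apart.

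Markers of other tissues were also present in the libraries. The 5 stromal markers, collagens and proteoglycans of keratocytes, had a median of 8.43 log2(CPM per kb) and ran from 7.20 for *Lum* (lumican) to 9.34 for *Dcn* (decorin). Corneal epithelial markers had a median of 2.82 with 6 of 6 listed, led by *Aldh3a1* at 9.10, an enzyme that is also made by keratocytes. The epithelial keratins were at 3.99 for *Krt5*, 3.93 for *Krt15*, 1.71 for *Krt12* and 1.37 for *Krt14*. *Pax6*, a transcription factor of the eye surface, was lowest at -1.26. Of the 5 contractile genes listed for iris and vessel muscle, 2 had a row, *Myh11* at 4.76 and *Acta2* at 4.50. *Des*, *Cnn1* and *Tagln* had no row. Crystallins and other lens genes ranged from -0.32 for *Cryaa* to 1.37 for *Bfsp1*, within the range of the pigment genes.

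Markers of 3 cell types that share genes with the pigment list were all below the lowest endothelial marker. For the posterior pigmented and retinal pigment epithelium, 3 of 7 markers had a row. They were at -0.40 for *Rdh5*, -0.76 for *Best1* and -3.27 for *Lrat*. *Rpe65*, *Rlbp1*, *Otx2* and *Ttr*, the other markers of this list, had no row. For Schwann cells, which express *Sox10*, 2 of 4 reported markers had a row. The neuregulin receptor *Erbb3* was at -1.20 log2(CPM per kb) and the myelin gene *Mbp* at 2.70, while *S100b* and *Cdh19* had no row. For macrophages, which make *Gpnmb*, all 7 markers had a row with a median of 1.01, from -3.26 for *Ptprc* to 3.91 for *Lyz2*. *Gpnmb*, at 2.82, was above 6 of these 7 markers. The source of the pigment transcripts was not tested, since only means over all the libraries were used.

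**Figure D3:**
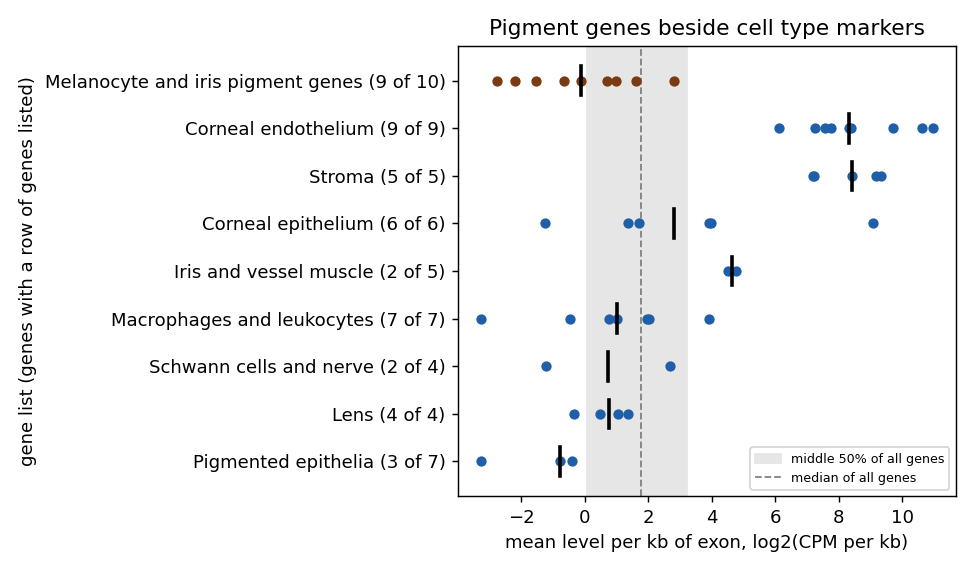
Mean level per kb of each gene (points) in the pigment list and in 8 marker lists, on a log2(CPM per kb) axis, with the list median as a black bar. All 9 pigment genes lie left of every corneal endothelial marker. The pigment genes overlap the lens, macrophage, Schwann cell and corneal epithelium lists. They also overlap the list of the posterior pigmented and retinal pigment epithelium (labelled Pigmented epithelia).

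Other genes of melanosome formation and transport were taken as a list. Of its 16 genes, 15 had a row, with a median of 1.59 log2(CPM per kb), and 5 of the 15 were above the median of all genes. The 3 lowest were *Gpr143*, a receptor on the melanosome, at -1.82 log2(CPM per kb), the melanocyte channel *Trpm1* at -0.85, and *Slc24a5*, a cation exchanger whose loss lightens pigment, at -0.81. *Mlph*, which links melanosomes to myosin Va, was at 0.04, and these 4 genes made up the list's share of the lowest 25% of all genes. *Rab38*, a small GTPase that delivers melanosome cargo, had no row, while its relative *Rab32* was at 1.72.

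*Ap3d1*, a subunit of the AP-3 sorting adaptor, was highest of the list at 4.62 log2(CPM per kb), followed by *Hps5* at 3.04 and *Lyst*, a regulator of lysosome size, at 2.11. *Myo5a*, the myosin that carries melanosomes and other cargo, was at 1.97, and *Rab27a*, the GTPase that recruits it, at 1.82. The 5 *Hps* genes of the list, which are named for Hermansky-Pudlak syndrome and whose products help to build lysosome-related organelles, ranged from 0.62 for *Hps3* to 3.04 for *Hps5*, with *Hps6* at 1.70, *Hps1* at 1.59 and *Hps4* at 1.48. The lysosomal channel *Tpcn2* was at 1.38.

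Of 12 genes of melanocyte signalling and transcription, 8 had a row. *Ednrb*, the endothelin receptor that neural crest cells use in migration, was far above the others at 8.53 log2(CPM per kb), percentile 99.7 of all genes and in the range of the corneal endothelial markers. Its ligand *Edn3* was at -0.56. *Kitl*, the ligand of the receptor KIT, was at 2.83, whereas *Kit*, which melanocytes need for survival, was at -2.94. Per kb over the union of exons, *Kit*, *Lef1* at -2.86 and *Tfap2a* at -2.97 were slightly below *Tyr* at -2.74. Without division by length, *Kit* at 0.21 log2 CPM and *Lef1* at 0.28 were above *Tyr* at 0.09. *Tfap2a* at -0.68 log2 CPM stayed below it. *Mc1r*, the melanocortin receptor, *Pax3*, a neural crest factor, and *Tfec* had no row, and *Asip* was not matched by symbol. Of the factors related to MITF, *Tfe3* was 1.50-fold above *Mitf* per kb, and *Mitf* was 1.04-fold above *Tfeb*.

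**Figure D4:**
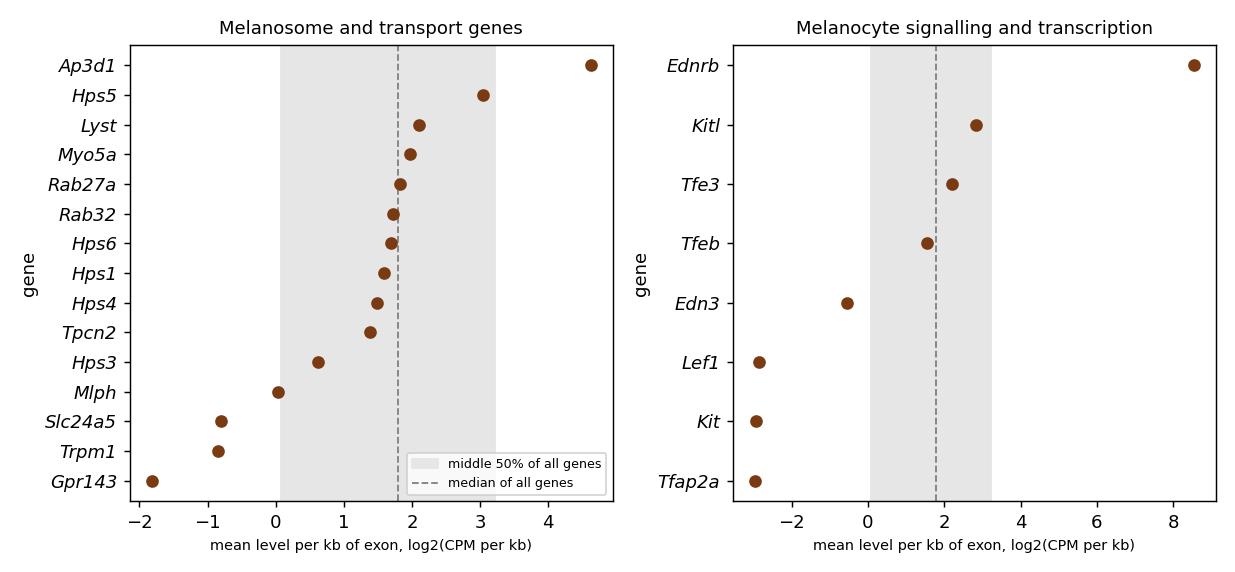
Mean level per kb of the 15 melanosome and transport genes with a row (left) and the 8 signalling and transcription genes with a row (right), on log2(CPM per kb) axes. The grey band is the middle 50% of all genes and the dashed line their median; *Ednrb* stands at 8.53 and *Kit* at -2.94.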

How the data were processed

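RNA from Descemet membranes with CEC was made into stranded total RNA libraries of low input and sequenced as paired-end reads of 50 bases. The authors used Hisat2 and the mouse genome GRCm38 for alignment, TMM for scaling to CPM, and limma with voom for the fit. Tool versions, counter, annotation and gene filter are not given in the sources used here. The authors deposited 3 tables of 15838 genes, for genotype, sex and the interaction, each with the authors' mean over the libraries on the log2 scale (log2 CPM), which was equal in all 3. The same tables hold log2 fold changes, t, p and adjusted p of the authors' own comparisons. These were not used, so no groups were compared, no test was run and the depth per library is unknown. Taken back from the log2 scale, a mean of log values is a geometric mean of CPM, apart from any offset added before the log. Without an offset it lies below the arithmetic mean where libraries differ. An offset would raise low values most, and its size is not given in the sources used here.

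Rows were matched by symbol, with no duplicated symbol, and gene IDs were checked against GENCODE M21 (GRCm38), which held 15824 of the genes. Levels per kb are the mean minus log2 of the exonic length in kb, and percentiles count genes at or below a value. Stretches of 50 bases were compared over all M21 transcripts on both strands. Motifs were searched in RefSeq promoter windows (GRCm38.p6). The genes and gene lists were chosen with earlier results of these data known. All pigment, pathway and signalling genes are named, and of the marker lists the lowest and highest gene, with the other markers named here chosen after their values were seen. The length and motif steps were checked on simulated data with Python 3.11.15 and pandas 2.3.3. Of the marker lists, 2 genes are not reported here. Protein identity between the enzymes was planned but not computed.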

Additional observations from a re-analysis of the deposited data

How the results depend on the processing

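The 9 genes with a row were found by symbol, by gene ID and in each of the 3 tables, and the 7 genes with a mean of at least 1 CPM were the same number in each table. With a threshold of 2 CPM, 5 of the 9 genes reached it, as did 79.4% of all genes. By mean level, not divided by length, the median percentile of the members was 24.5 among all genes, 14.0 among protein-coding genes and, over the 7 that reach 1 CPM, 25.7 among genes with a mean of at least 1 CPM. Compared with the order per kb over the union of exons, 2 of the 9 places changed with the longest transcript, 6 with the longest coding sequence and 5 with no division by length. The level per kb moved up by 0.06 to 0.82 on the log2 scale with the longest transcript and by 0.29 to 2.15 with the longest coding sequence. The M-box core was in the windows of 3 genes also when only the bases before the start were searched, and the E-box CATGTG was in 4. No paired analysis was possible because only means over all libraries were used, which also left no replicate to leave out. For the same reason no interval or limit of detection can be given, and low means such as those of *Mlana* and *Oca2* rest on an unknown number of reads.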
